A study of Mus musculus with 18 samples.

Results

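The titin ankyrin and Xin genes of skeletal muscle, Ankrd1, Ankrd2, Ankrd23, Xirp1 and Xirp2, were followed in the nuclear and cytoplasmic RNA of mouse myofibers. They were found as every non-control probe that carried 1 of these 5 gene names on the array, which gave 6 probe names out of 55681, Ankrd23 having 2 and each other gene 1. The fibers came from CD1 female mice aged 3 months, with no treatment named, and from 3 muscles. Extensor digitorum longus (EDL) and tibialis anterior (TA) are mostly fast, and soleus holds more slow fibers. Intact fibers were picked after collagenase digestion, pools of 5 to 10 were lysed with detergent, and nuclei were spun down, the supernatant being the cytoplasmic fraction. Fluorescent cRNA was made from the RNA of each fraction with an Agilent low-input amplification kit. It was hybridised to a 1-colour Agilent array, with 3 arrays for each of the 6 groups, 18 in all. EDL and soleus replicates 1, 2 and 3 came from mice 3 and 4, 5 and 6, and 7 and 8 in both fractions. TA nuclei came from mice 1, 2 and 3, and TA cytoplasm from mice 5 and 1, mice 5 and 2, and mouse 9, so that the first 2 TA cytoplasmic arrays shared a mouse.

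Ankrd1, Ankrd2 and Ankrd23 encode the muscle ankyrin repeat proteins, which bind the elastic I-band segment of titin and are also found in nuclei, where they act on transcription. Ankrd1 is an early response gene of stretched, injured or denervated muscle and of the loaded heart, Ankrd2 is known from slow fibers and from stretch, and Ankrd23 is known from the response to diabetes and exercise. Xirp1 and Xirp2 encode the Xin repeat proteins, which bind and bundle actin filaments at myotendinous junctions and at sites of damage along the sarcomeres, and Xirp2 is a target of the MEF2 factors.

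The probes that carry every value below are shown first, because each is a 60-base window that reads only a short stretch of its transcript. Positions are those of the array design on mm9, and strands are those of the gene. The Ankrd2 probe, at chr19:42118566-42118625 on the plus strand, covers bases 784 to 843 of its transcript. The Ankrd23 probe named the 5′ probe here, A_55_P2052882, lies at chr1:36588569-36588628 on the minus strand, at bases 785 to 844 of the transcript. Both are printed whole.
Ankrd2: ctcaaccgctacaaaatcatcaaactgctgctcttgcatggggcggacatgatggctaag
Ankrd23, 5′ probe: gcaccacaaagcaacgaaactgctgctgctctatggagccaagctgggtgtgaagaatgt

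Of the other 4 probes the first 30 bases are printed. The Ankrd1 probe (A_52_P120803, chr19:36186809-36186868, minus strand) covers transcript bases 1351 to 1410. The 3′ probe of Ankrd23 (A_55_P2047986, chr1:36587405-36587464, minus strand) covers bases 1868 to 1927, the Xirp1 probe (A_55_P2116744, chr9:119923389-119923448, minus strand) bases 5263 to 5322, and the Xirp2 probe (A_52_P744179, chr2:67363961-67364020, plus strand) bases 11252 to 11311. They are shown because the 2 Ankrd23 probes read different stretches of 1 transcript. In TA cytoplasm their differences from EDL and soleus had the same sign, and only the 3′ probe passed the adjusted p threshold of 0.05. No other probe on the array shared a run of 20 bases with any of the 6.
Ankrd1: cccctttgtgttctcacttgcataaagcta
Ankrd23, 3′ probe: tgctttctctcccagctgtttccagtttca
Xirp1: cccccaggactgagtcatgggcctacctcc
Xirp2: ggaaaccatgaaaacaacaaaaatgtacac

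All 6 probes were well above background, not saturated and not marked as outliers on all 18 arrays, so every level below is a measured one. Levels are given as log2 of the quantile-normalized intensity, on which a difference of 1 is a doubling, and no probe's level is set against that of another probe. Replicates varied less in nuclei than in cytoplasm: the median SD over 35528 probes was 0.11 to 0.15 in the 3 nuclear groups and 0.25 to 0.40 in the 3 cytoplasmic groups. The arrays lay on 4 slides. Within EDL and within soleus the cytoplasm lay on 1 slide and the nuclei on another, so that slide and fraction cannot be told apart there, whereas soleus and EDL shared a slide within each fraction. TA nuclei shared a slide only with TA cytoplasm 2, TA cytoplasm 1 shared that of the EDL and soleus cytoplasm, and TA cytoplasm 3 lay on a slide of its own. As a check of the labels, 5 of 5 nuclear RNAs listed, Malat1 and Xist among them, were higher in nuclei, and 5 of 6 slow fiber markers were higher in soleus than in EDL in each fraction. All 5 endothelial markers were also higher in nuclei, with a mean level of 9.08 to 9.51 on the nuclear arrays against 7.46 to 8.90 on the cytoplasmic ones, as were 4 of 5 fibroblast markers (10.18 to 11.09 against 8.59 to 10.62), while 4 of 5 macrophage markers were lower. Of all probes tested over the 3 muscles, 31.2% were called higher in nuclei. The part of other cell types in the fraction differences was not tested.

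Ankrd2 was the member that differed most between muscles. Its levels on the 3 arrays were 14.18, 14.25 and 14.22 in soleus nuclei and 13.35, 13.22 and 13.46 in soleus cytoplasm. In EDL they were 10.18, 10.50 and 11.43 in nuclei and 10.17, 9.15 and 9.36 in cytoplasm. In TA they were 10.84, 10.75 and 10.80 in nuclei and 8.96, 9.10 and 10.34 in cytoplasm. Every soleus array lay above every EDL and TA array, and within each muscle every nuclear array lay above every cytoplasmic one. Such separation was common on the array. Nuclei lay above cytoplasm without overlap for 4 of 6 member probes in EDL, 4 in soleus and 3 in TA, and for 32.3%, 29% and 23.3% of the 35528 probes with a value on every array. Soleus lay above EDL for 2 member probes in nuclei and 1 in cytoplasm, against 22.8% and 6.69%. In nuclei soleus lay below EDL for the 3′ probe of Ankrd23 and for Xirp2, a direction whose share of all probes is not given here. TA lay below EDL for 5 and 2 member probes in nuclei and cytoplasm, against 36.8% and 12.7%, and below soleus for 5 and 3, against 37.1% and 14.3%. Before scaling, the Ankrd2 intensity was 20540 to 22960 in soleus nuclei and 353.9 to 999.9 in TA cytoplasm.

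Ankrd23 stood at similar levels in EDL and soleus, with its lowest nuclear levels in TA. Its 5′ probe read 12.22, 12.31 and 12.16 in EDL nuclei, 12.02, 12.06 and 12.22 in soleus nuclei, and 11.16, 11.15 and 11.05 in TA nuclei. Its levels on the cytoplasmic arrays were 11.20, 11.23 and 11.03 for soleus, 11.47, 11.09 and 11.14 for EDL, and 11.50, 10.11 and 10.48 for TA. The nuclear arrays of each muscle lay close together, and TA cytoplasm 1 stood above the other 2 TA cytoplasmic arrays. The 3′ probe gave the same picture, with 12.15 to 12.44 over the EDL and soleus nuclear arrays, 11.00 to 11.15 in TA nuclei, and 11.49, 9.52 and 10.23 in TA cytoplasm against 11.21 to 11.70 in EDL and soleus cytoplasm. On both probes TA cytoplasm 1, the TA cytoplasmic array that shared a slide with EDL and soleus cytoplasm, read at 11.49 or 11.50, within or just above the range of those 6 arrays.

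Of the members, Ankrd1 varied most among replicates in soleus, in both fractions. In EDL cytoplasm Xirp1 varied more, with an SD of 1.59 against 0.89 for Ankrd1. In soleus cytoplasm its levels were 10.07, 7.51 and 5.28, an SD of 2.40, and in EDL cytoplasm 8.90, 8.38 and 10.11. In the nuclei they were 9.07, 7.79 and 9.17 in soleus and 9.16, 9.19 and 8.67 in EDL. TA was lower and narrow, at 7.91, 8.24 and 8.05 in cytoplasm and 7.91, 7.86 and 8.16 in nuclei. The soleus cytoplasmic arrays thus spanned 4.79 on the log2 scale, with 1 of them among the highest of all 18 and another the lowest, while every TA array lay below every EDL array of its fraction.

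**Figure D1:**
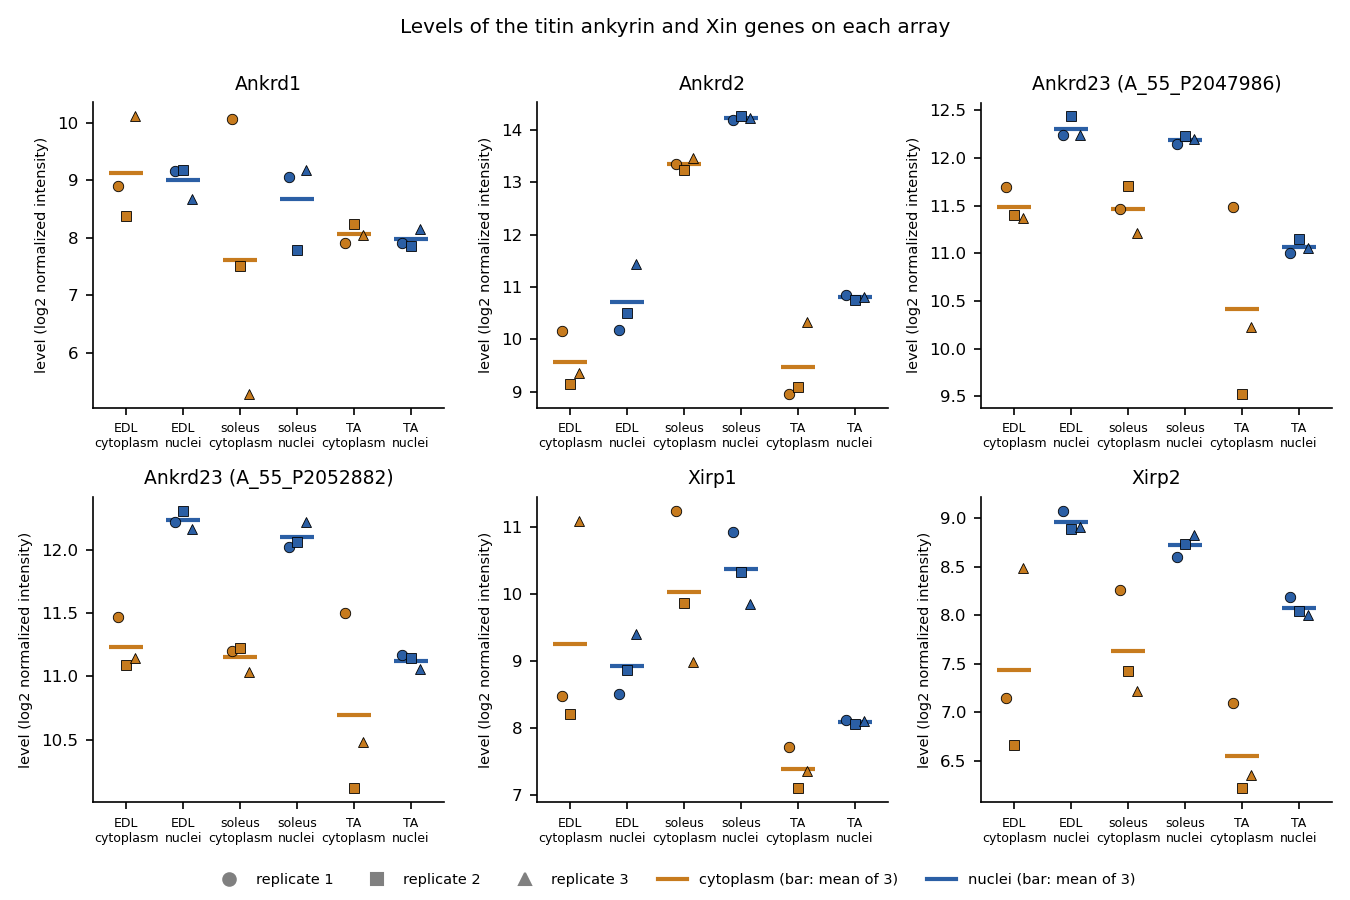
Level of each member probe (vertical axis, log2 of quantile-normalized intensity, scale set per panel) on each of the 18 arrays by muscle and fraction; symbols mark replicates and bars the mean of 3 arrays. All soleus arrays of Ankrd2 lie above 13, every other array of it lies below 12, and the Ankrd1 points in soleus cytoplasm run from 5.28 to 10.07.

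By its mean, Xirp1 was highest in soleus and lowest in TA in both fractions. In nuclei it read 10.92, 10.31 and 9.85 in soleus, 8.50, 8.86 and 9.39 for EDL, and 8.11, 8.06 and 8.10 in TA, with no overlap between the muscles. In cytoplasm it read 11.23, 9.86 and 8.99 in soleus, 8.47, 8.21 and 11.08 in EDL, and 7.71, 7.09 and 7.36 in TA. The TA cytoplasmic arrays lay below all others, while 1 EDL array reached the upper end of the soleus range.

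Xirp2 separated the fractions without overlap in every muscle. Its nuclear levels were 8.60, 8.73 and 8.83 for soleus, 9.08, 8.89 and 8.91 for EDL, and 8.19, 8.04 and 8.00 for TA. Its cytoplasmic levels were 8.26, 7.43 and 7.22 for soleus, 7.15, 6.66 and 8.49 for EDL, and 7.10, 6.22 and 6.35 for TA. In both fractions the TA arrays lay below all soleus arrays, and in nuclei also below all EDL arrays.

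The first comparison asks whether the signal of the members, relative to the other probes of the same array, was higher in nuclei or in cytoplasm. Over the 3 muscles 4 of 6 probes were higher in nuclei: Xirp2, Ankrd2 and both probes of Ankrd23. Among all 40541 probes tested, 31.2% were called higher in nuclei and 69.8% were called in either direction, so that a call in this comparison was common on the array. Xirp2 was higher by 1.38 ± 0.22 (log2 difference ± SE, 3 arrays a group), 2.6-fold, with an adjusted p of 4.47e-05 in limma, the linear model with moderated variances used for all tests here. Ankrd2 was higher by 1.12 ± 0.21 (adjusted p = 0.00021), the 5′ probe of Ankrd23 by 0.79 ± 0.15 (0.00025) and its 3′ probe by 0.74 ± 0.19 (0.00326), while the median of all probes was -0.079. Ankrd1 (0.28 ± 0.47, adjusted p = 0.604) and Xirp1 (0.23 ± 0.37, 0.582) did not pass the threshold of 0.05, and their 95% intervals, -0.71 to 1.27 and -0.55 to 1.01, leave room for a difference of the size of that of Ankrd23 or for a smaller one the other way. With slide as a random block the Ankrd2 difference was 1.00 and its adjusted p 0.0726, and the other 3 calls held.

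Within single muscles the same 4 probes had positive differences, and fewer of them passed the threshold. In EDL 3 of 6 probes were higher in nuclei, where 20% of all probes were: Xirp2 by 1.53 (adjusted p = 0.00409), Ankrd2 by 1.14 (0.0174) and the 5′ probe of Ankrd23 by 1.00 (0.0058). The 3′ probe was at 0.82 (0.0568, and 0.0498 with the replicate number as a block). In soleus 2 of 6 were higher, against 18.7% of all probes: Xirp2 by 1.09 (0.0322) and the 5′ probe of Ankrd23 by 0.95 (0.00962), with Ankrd2 at 0.88 (0.0654). In TA 2 of 6 were higher, against 19.2%: Xirp2 by 1.52 (0.00342) and Ankrd2 by 1.33 (0.00613). Xirp2 was thus the 1 probe of 6 called higher in each muscle, as were 10.6% of all probes. The EDL call of Ankrd2 was lost without EDL cytoplasm 2 (0.94, adjusted p = 0.0758), EDL cytoplasm 3 (1.04, 0.0568) or EDL nuclei 3 (0.78, 0.0994). The soleus call of Xirp2 was lost without soleus cytoplasm 2 (0.98, 0.074) or 3 (0.88, 0.127) or any 1 soleus nuclear array (1.03 to 1.14, 0.059 to 0.0851).

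For Ankrd23 the TA difference depended on which cytoplasmic arrays entered it. All 3 TA cytoplasmic arrays gave 0.42 for the 5′ probe (adjusted p = 0.184) and 0.66 for the 3′ probe (0.112). Without TA cytoplasm 1 they were 0.82 (0.00121) and 1.19 (0.000449). Against TA cytoplasm 2 alone, the array on the slide of TA nuclei, they were 1.01 and 1.55, values of 1 cytoplasmic array given with no test. The TA cytoplasmic arrays differ in slide and in mice, which cannot be told apart. The EDL calls of Ankrd2 (0.88, adjusted p = 0.367) and Xirp2 (1.81, 0.101) and the soleus call of Xirp2 (1.37, 0.249) were lost with slide as a random block, where 12.1% of all probes were called in EDL and 6.89% in soleus in either direction.

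Ankrd1 and Xirp1 passed in no single muscle. For Ankrd1 the soleus difference was 1.06, and those of EDL and TA were -0.13 and -0.090, with a standard error of 0.81 each. Without soleus cytoplasm 1, the array at 10.07, the soleus value was 2.28 with an adjusted p of 0.00875. Without soleus cytoplasm 3, the array at 5.28, it was -0.11 (0.909). A single array thus decided whether Ankrd1 was called there and which sign it had. Xirp1 stood at 0.70 in TA, 0.34 in soleus and -0.34 in EDL, with a standard error of 0.63.

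**Figure D2:**
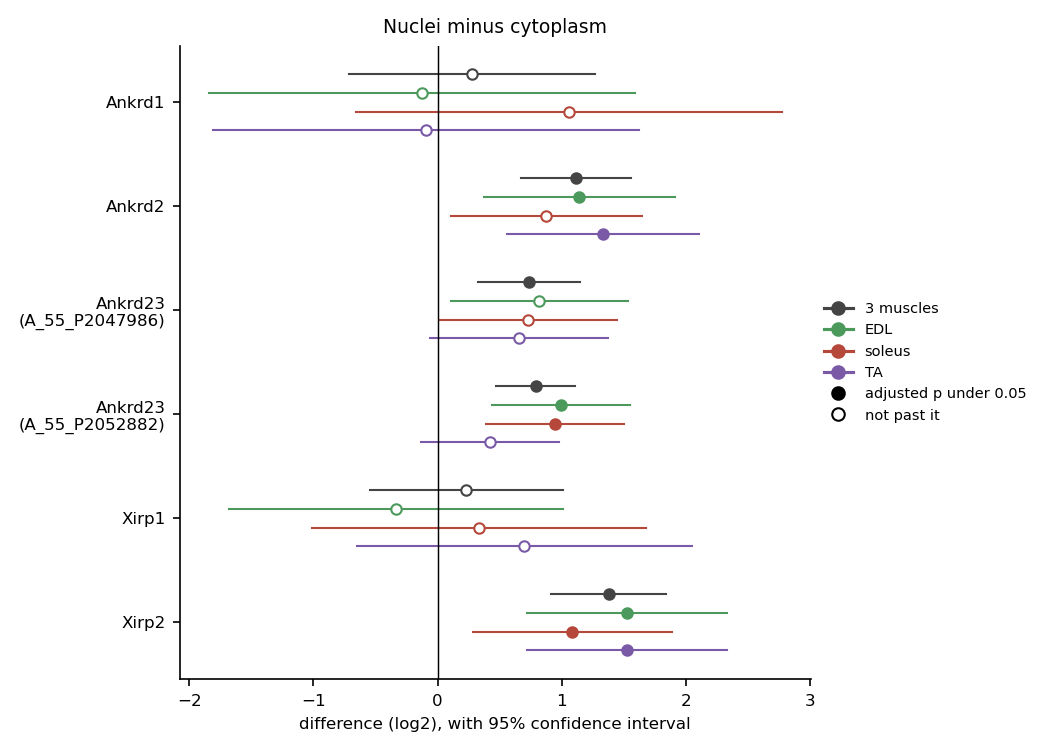
Difference between nuclei and cytoplasm (horizontal axis, log2) for each member probe over the 3 muscles and in each muscle; lines are 95% confidence intervals from the limma fit and filled symbols mark an adjusted p under 0.05. Xirp2 is filled in all 3 muscles, and the intervals of Ankrd1 and Xirp1 cross 0 throughout.

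Whether the difference between fractions itself changed with the muscle was tested by the interaction, and no member passed. Of all probes 1.57% did. Between pairs of muscles, 0 of 6 members and 0.0286% of all probes passed for soleus against EDL, 0.339% for TA against EDL and 3.33% for TA against soleus. Over the 3 muscles the adjusted p was 0.592 for the 5′ probe of Ankrd23 and 0.784 to 0.983 for the other 5 probes, and the smallest unadjusted p was 0.258. The single-muscle differences of a probe, whether past the threshold or not, were therefore not shown to differ between muscles.

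The next comparison sets soleus, with more slow fibers, against the fast EDL within each fraction, on arrays of the same mice and the same slide. Ankrd2 was higher in soleus by 3.51 ± 0.36 in nuclei, 11.4-fold (adjusted p = 7e-05), and by 3.78 ± 0.36 in cytoplasm, 13.7-fold (4.27e-05). It was the 1 probe of 6 called in each fraction, where 1.56% of all probes were called in nuclei and 1.42% in cytoplasm. The 95% intervals were 2.74 to 4.28 and 3.01 to 4.55. Of the slow fiber markers, 5 of 6 were higher in soleus nuclei and cytoplasm. Their mean level was 13.49 to 14.31 on the soleus arrays against 8.78 to 10.46 on the EDL arrays. The fast fiber markers had a mean level of 11.86 to 13.86 on the soleus arrays against 14.50 to 15.07 on the EDL arrays. The part of fiber type in the Ankrd2 difference was not tested. In pooled fibers, more fibers that express a gene and more RNA per fiber cannot be told apart.

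No other member was called between soleus and EDL. Xirp1 was at 1.44 ± 0.63 in nuclei, where all 3 soleus arrays lay above all 3 EDL arrays, with an unadjusted p of 0.0375 and an adjusted p of 0.458. A separation of this kind without overlap, higher in soleus, held for 22.8% of the 35528 probes with a value on every array. With the 6 nuclear arrays of EDL and soleus fitted alone the adjusted p of Xirp1 was 0.0459. Both probes of Ankrd23 differed by -0.027 to -0.13 with intervals within -0.83 to 0.69, Xirp2 by -0.24 in nuclei and 0.20 in cytoplasm, and Ankrd1 by -0.33 and -1.51. The cytoplasmic interval of Ankrd1 ran from -3.23 to 0.20. Without soleus cytoplasm 1 that difference was -2.74, with an adjusted p of 0.0282, and without soleus cytoplasm 3 it was -0.34 (0.804).

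TA differed from soleus in more members. Ankrd2 was lower in TA, with a TA minus soleus difference of -3.42 ± 0.36 in nuclei and -3.87 ± 0.36 in cytoplasm (adjusted p = 2.64e-05 and 9.6e-06). Xirp1 was lower, at -2.27 ± 0.63 (0.0211) and -2.64 ± 0.63 (0.0076), which is 4.84-fold and 6.23-fold. The 3′ probe of Ankrd23 was lower, at -1.12 in nuclei (0.0294) and -1.05 in cytoplasm (0.0304), and its 5′ probe at -0.98 in nuclei (0.0167) with -0.46 in cytoplasm (0.2). Xirp2 was lower in cytoplasm, at -1.08 (0.0442, and 0.0572 with the replicate block) and stood at -0.64 in nuclei (0.249). That made 4 of 6 probes lower in TA in each fraction, against 11.9% of all probes in nuclei and 12.8% in cytoplasm. Slow fiber, tendon cell and some fibroblast markers were lower in TA too, while those of some other cells were higher in TA nuclei. The mean level of smooth muscle and pericyte markers was 10.56 to 10.75 in TA nuclei against 9.49 to 9.60 in soleus nuclei. For satellite cell markers it was 7.88 to 8.29 against 7.29 to 7.43. For endothelial markers it was 9.35 to 9.48 against 9.08 to 9.20, and for erythroid markers 10.12 to 10.31 against 8.97 to 9.09. Of 6 slow fiber markers 5 were lower in TA nuclei and 6 in TA cytoplasm. Of 5 tendon cell markers 4 were lower in each fraction, with median differences of -3.60 in nuclei and -2.55 in cytoplasm, where their mean level was 7.15 to 7.44 on the TA arrays against 9.43 to 9.80 on those of soleus. Of 5 fibroblast markers 2 were lower in nuclei and 4 in cytoplasm. The part of fiber type and of other cells in the differences of the members was not tested. Several of the calls lay near the threshold. In nuclei, leaving out any 1 of the 6 arrays compared ended that of the 3′ probe (adjusted p 0.0609 to 0.0808), leaving out soleus nuclei 1 or 2 or any TA array ended that of Xirp1 (0.0535 to 0.0829), and leaving out soleus nuclei 3 (0.0631) or TA nuclei 3 (0.058) ended that of the 5′ probe. In cytoplasm, the call of Xirp2 was lost in 13 of 18 such fits (0.0543 to 0.159). That of the 3′ probe was lost without soleus cytoplasm 1 or 2 or TA cytoplasm 2 or 3 (0.0543 to 0.16). The cytoplasmic call of Xirp1 held in all 18. It was lost with the cytoplasmic arrays of TA and soleus fitted alone (adjusted p = 0.0673), where 0.629% of all probes were called. With array weights by fraction it was lost too (0.0612), where 8.7% were called. Without soleus cytoplasm 1, Ankrd1 was higher in TA cytoplasm by 1.67 (0.0446), and without soleus cytoplasm 3 it was at -0.72 (0.391).

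Against EDL, TA was lower in Ankrd23. The nuclear difference was -1.24 for the 3′ probe (adjusted p = 0.022) and -1.11 for the 5′ probe (0.0113), 2 of 6 probes against 9.81% of all. In cytoplasm the 3′ probe was at -1.07 (0.0479) and the 5′ probe at -0.54 (0.196), 1 of 6 against 7.33%. Higher in TA were 0 of 6 probes in either fraction, against 7.59% of all probes in nuclei and 5.12% in cytoplasm. Ankrd2 was at 0.096 in nuclei and -0.093 in cytoplasm, with intervals from -0.86 to 0.87. Xirp1 was at -1.87 in cytoplasm (0.0653), Xirp2 at -0.88 in both fractions and Ankrd1 at -1.03 and -1.07, none of them past the threshold. Tendon cell markers were lower here too, 4 of 5 in nuclei and 3 of 5 in cytoplasm, where 1 was higher. In cytoplasm Xirp1 was called without EDL cytoplasm 2 (-2.39, adjusted p = 0.0426) or soleus cytoplasm 1 (-1.87, 0.046), and without EDL cytoplasm 3 it was at -0.95 (0.225) and Xirp2 at -0.35 (0.488). Xirp2 in nuclei was called without EDL cytoplasm 3, at an unaltered -0.88 (0.0418). With the 6 nuclear arrays of TA and EDL fitted alone Ankrd1 (0.00619), Xirp1 (0.0307) and Xirp2 (0.0018) were called lower in TA too, in a fit that called 43.3% of all probes in either direction. The nuclear call of the 3′ probe was lost without any 1 of the 6 arrays compared (adjusted p 0.0506 to 0.0737), and its cytoplasmic call in 16 of 18 fits that left out 1 array (0.0507 to 0.249). Without TA cytoplasm 1 the 5′ probe was called in cytoplasm, at -0.94 (0.000792).

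Of the 6 TA arrays, TA cytoplasm 1 was the 1 array on a slide with EDL or soleus. Within that slide the difference between TA cytoplasm 1 and soleus was 0.025 for the 3′ probe of Ankrd23, 0.35 for its 5′ probe, -2.31 for Xirp1 and -0.54 for Xirp2, values of 1 TA array given with no test. In nuclei TA shared no slide and no scan day with the other muscles. Its nuclei came from single mice, and those of EDL and soleus from pairs of mice. Slide, scan day, mice and muscle cannot be told apart there. With slide as a random block the nuclear calls of both Ankrd23 probes and of Xirp1 were lost, at adjusted p between 0.637 and 0.777, in a fit that called 0.611% of all probes for TA against soleus and 0.0993% for TA against EDL. The difference of Xirp1 against soleus was then -2.12, those of the Ankrd23 probes were -0.66 and -0.67 against soleus and -0.77 and -0.80 against EDL, and Ankrd2 was still called against soleus.

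**Figure D3:**
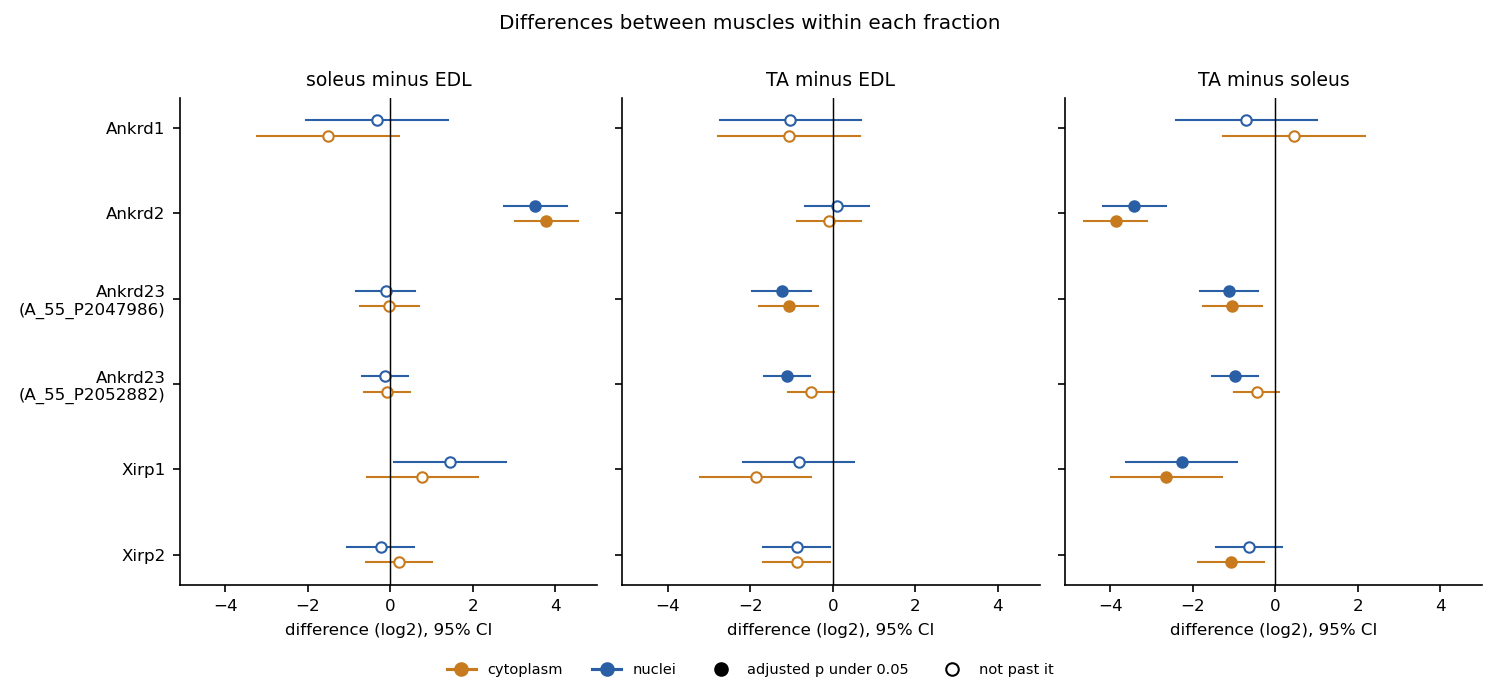
Differences between muscles (horizontal axis, log2) for each member probe in nuclei and cytoplasm; lines are 95% confidence intervals and filled symbols mark an adjusted p under 0.05. Ankrd2 stands 3.51 and 3.78 above EDL in soleus, and its differences between TA and EDL lie on either side of 0.

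Ankrd1, Xirp1 and Xirp2 shared an uneven spread over the cytoplasmic arrays of EDL and soleus, given here as a description. How many of all probes shared it was not counted. In EDL cytoplasm, the pool of mice 7 and 8 was the highest array for Ankrd1 (10.11), Xirp1 (11.08) and Xirp2 (8.49). In soleus cytoplasm it was the pool of mice 3 and 4, at 10.07, 11.23 and 8.26. For Xirp1 the pools kept the same order in soleus nuclei and the pool of mice 7 and 8 was the highest in EDL nuclei too, at 9.39. For Ankrd1 and Xirp2 the nuclear arrays of these pools were not the highest of their group. The same mice gave a high EDL array and a low soleus array of Xirp1, 11.08 and 8.99 in cytoplasm for mice 7 and 8. The high cytoplasmic arrays also had the most spots well above background in their groups. The share was 69.3% in EDL, against 62.79% and 65.38%, and 67.01% in soleus, against 58.61% and 61.79%. The part of this in the levels was not tested.

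**Figure D4:**
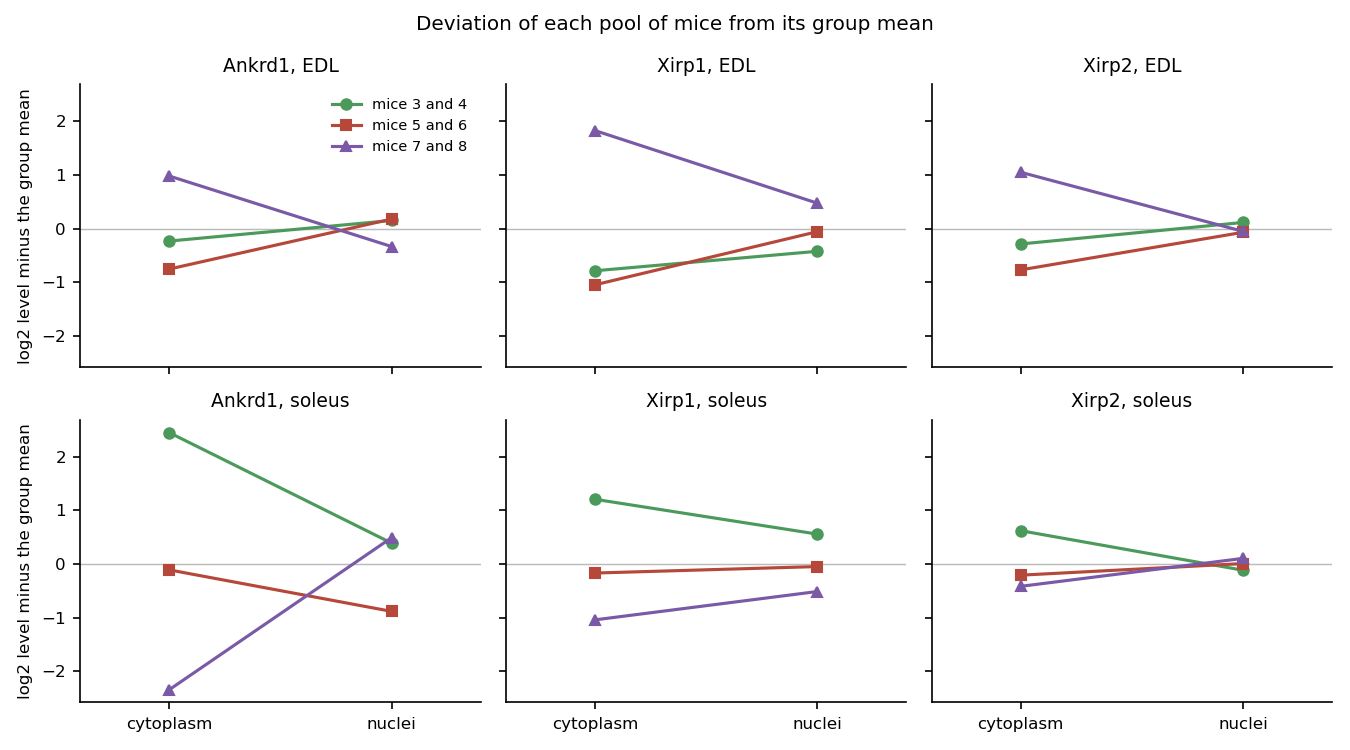
Deviation of each array from its group mean (vertical axis, log2) for Ankrd1, Xirp1 and Xirp2 in EDL and soleus; a line joins the cytoplasmic and nuclear array of the same mice. The Xirp1 lines in soleus do not cross, and the soleus Ankrd1 points spread from -2.34 to 2.45 in cytoplasm.

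The other genes of the pathway were taken from lists chosen for their known role, each gene by its brightest probe. Of 20 partners of titin in the I-band and Z-disc, 13 were higher in nuclei over the 3 muscles, against 31.2% of all probes. Of the others 2 were lower and 5 did not pass. The median difference was 0.52 beside -0.079 for all probes. Ttn, which encodes titin, was higher in nuclei by 1.27 ± 0.11 (adjusted p = 1.25e-07) and Capn3, the protease bound to titin next to the ankyrin repeat proteins, by 1.30 ± 0.11 (1.19e-07). Trim55, a titin-binding ubiquitin ligase of the M-band, was lower, at -1.06 ± 0.14 (6.15e-06) and Fhl2, a LIM protein that ties metabolic enzymes to titin, at -0.46 ± 0.11 (0.00129). Fhl2 was also the 1 gene of the list to pass the interaction (adjusted p = 0.0196), at 0.46 in soleus, -0.84 in EDL and -1.01 in TA.

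Between soleus and EDL, 4 of these 20 genes were higher in soleus nuclei and 3 in soleus cytoplasm, and 0 were lower. Of all probes 1.56% and 1.42% were called in either direction. Csrp3, the muscle LIM protein of the Z-disc, was higher by 3.20 ± 0.53 in nuclei (adjusted p = 0.00401) and 3.43 ± 0.53 in cytoplasm (0.00322). Fhl2 was higher by 2.37 ± 0.19 (4.04e-06) and 1.08 ± 0.19 (0.00747). The other genes called were Fhl1 in both fractions and Cryab, a small heat shock protein of titin and desmin, in nuclei. Another probe of Cryab was at 1.10 in nuclei and was not called (adjusted p = 0.094). In TA against soleus 10 of 20 genes were lower in nuclei and 14 in cytoplasm, against 11.9% and 12.8% of all probes, and 0 were higher. The medians were -0.89 and -0.94 beside -0.10 and 0.20 for all probes.

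Of 16 partners of the Xin proteins at Z-discs and cell junctions, 15 were tested over the 3 muscles. Of these, 12 were higher in nuclei, against 31.2% of all probes, 1 was lower and 2 did not pass, with a median of 0.93. Cmya5 (myospryn, a partner of desmin and titin) was higher by 1.30 ± 0.14 (9.84e-07) and Nrap, an actin-binding protein of junctions, by 1.16 ± 0.13 (1.16e-06). Flnc, the muscle filamin that binds Xin, was higher by 0.79 ± 0.27 (0.0156), and Vasp, an actin assembly factor, was lower, at -0.65 ± 0.12 (0.000202). Between soleus and EDL, 1 of 16 was higher in nuclei and 2 in cytoplasm, Actn2 in both. Of all probes 1.56% and 1.42% were called there in either direction.

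Of 14 regulators and targets of the SRF, MRTF, YAP and MEF2 pathways, 8 were higher in nuclei, against 31.2% of all probes. Of the others 3 were lower and 3 did not pass, and the median of the list was 0.43. Yap1, the coactivator that reads mechanical load, was higher by 1.32 ± 0.17 (6.87e-06) and Mkl2, the coactivator MRTF-B of SRF, by 0.88 ± 0.12 (1.32e-05). Tead4, the partner of YAP on DNA, was lower, at -0.87 ± 0.11 (5.11e-06) and Lats2, a kinase that inhibits YAP, at -0.59 ± 0.10 (0.000134). Between soleus and EDL 0 of 14 passed in either fraction, with medians of 0.054 in nuclei and 0.056 in cytoplasm. Of all probes 1.56% and 1.42% passed. Of 12 genes of the injury and denervation response, 2 were higher in nuclei, against 31.2% of all probes: Hspb1 by 0.58 (0.000614) and Mt1 by 0.56 (0.0204). Lower was 1, Hmox1 at -0.98 (0.000817), and 9 did not pass. Between soleus and EDL, Hspb7, a small heat shock protein of the sarcomere, was the 1 gene of the 12 called, higher in soleus in both fractions.

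For each member, by its brightest probe, the 3 named genes with the most similar profile were sought as those with the smallest root mean square difference of centred log2 levels over the 18 arrays, among 22085 candidate probes. They share all libraries with the member, and the values are descriptive. For Ankrd2 they were Csrp3 (0.42), Phyhd1 (0.59) and Myh7b (0.60), the last a slow-type myosin heavy chain. For comparison, the SD of Ankrd2 over the 18 arrays was 1.90. Myh7b was higher in soleus than in EDL by 3.98 in nuclei and 3.84 in cytoplasm, and Phyhd1 by 2.47 and 2.42.

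**Figure D5:**
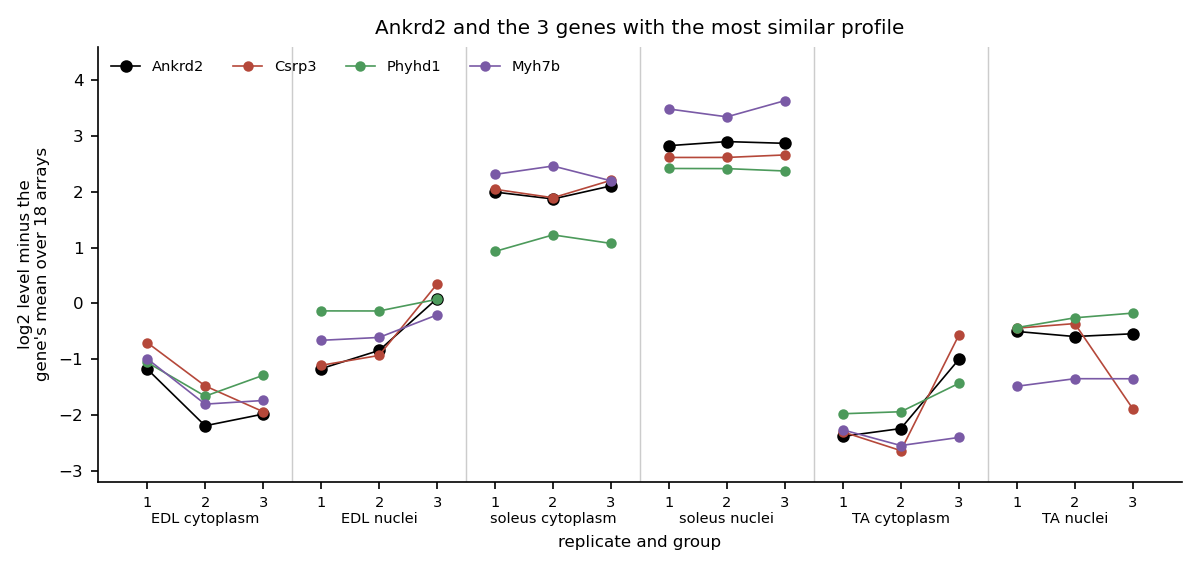
Log2 level of Ankrd2 and of the 3 genes with the most similar profile, each minus its own mean over 18 arrays (vertical axis), by replicate and group (horizontal axis). All 4 genes lie above 0 on each of the 6 soleus arrays, and in TA nuclei Csrp3 drops on replicate 3 where Ankrd2 does not.

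Among the genes most like Xirp2 were Atxn7 (0.25) and Capn3 (0.30), against an SD of Xirp2 of 0.93. Both were higher in nuclei, by 1.46 and 1.41, the last on another probe of Capn3 than the brightest. For Xirp1 the nearest were Cnksr1 (0.46), Sox9 (0.53) and Cryab (0.54), with an SD of 1.28, the last on another probe of Cryab than the brightest. For Ankrd23 they were Sf1 (0.17), Fam158a (0.18) and Atf4 (0.19), with an SD of 0.76. For Ankrd1 the nearest profile, that of Npc1, was still 0.67 away beside an SD of 1.09.

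Promoters are shown for Ankrd1 and Ankrd2, because of these 2 related genes on chromosome 19, Ankrd2 was called between soleus and EDL and Ankrd1 was not. The 250 bases upstream of the annotated start were taken from RefSeq on GRCm38.p6, matched by symbol for 4 of the 5 members, all but Xirp1, with 2 starts for Ankrd23. Both strands were searched for the TATA box (TATAAA), the MCAT element bound by TEAD factors (CATTCC), the E-box bound by MyoD and its relatives (CANNTG), the MEF2 site and the CArG box of SRF. Matches are in capitals. The Ankrd1 window is chr19:36119845-36120094 on the minus strand and that of Ankrd2 is chr19:42035777-42036026 on the plus strand.
Ankrd1: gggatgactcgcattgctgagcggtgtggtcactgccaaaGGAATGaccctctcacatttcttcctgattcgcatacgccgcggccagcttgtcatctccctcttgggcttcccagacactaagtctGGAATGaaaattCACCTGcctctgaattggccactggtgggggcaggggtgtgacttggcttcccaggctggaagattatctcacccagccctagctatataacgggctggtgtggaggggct
Ankrd2: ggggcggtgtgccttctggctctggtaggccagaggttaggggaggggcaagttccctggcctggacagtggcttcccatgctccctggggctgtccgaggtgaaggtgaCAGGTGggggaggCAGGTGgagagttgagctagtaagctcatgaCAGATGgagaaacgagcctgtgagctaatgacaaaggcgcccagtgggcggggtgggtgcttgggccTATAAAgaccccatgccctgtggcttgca

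Ankrd1 held 2 MCAT matches, from 210 and 123 bases upstream, and 1 E-box. It held no TATAAA, the only form of the TATA box searched for. The letters tatataa near the end of its window were not part of the search. Ankrd2 held a TATAAA starting 29 bases upstream and 3 E-boxes, from 140, 127 and 96 bases upstream, and no MCAT match. Xirp2 held a match to the MEF2 site, from 74 bases upstream, and 2 overlapping E-boxes. One window of Ankrd23 held 1 MCAT match and 2 E-boxes and the other held none of the 5. Among 32851 promoter windows of the same length, 12.4% held a TATAAA, 12.6% an MCAT match, 66.2% an E-box, 0.508% a MEF2 site and 1.47% a CArG box. The matches are a description of these letters and no evidence of binding.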

How the data were processed

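Amplified cRNA from nuclear and cytoplasmic RNA of pooled myofibers was hybridised to 18 Agilent arrays, 3 for each of 6 groups of muscle and fraction, grouped by the labels. Per the file headers, the authors deposited for each spot a processed intensity, corrected for background by Feature Extraction 10.7.3.1, with no scaling between arrays. The series matrix holds the authors' normalized intensity for 3687 features, none of them a member probe, and was not used.

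Control spots were removed. Spots without positive and significant signal and outlier spots were set to missing, the deposited intensity was taken to log2, arrays were quantile-normalized, and spots of a probe name were averaged (55681 names). Group means were fitted with limma 3.58.1 in R 4.3.3 (eBayes, prior df 3.27, residual df 12), and p-values, all 2-sided, were adjusted by Benjamini and Hochberg over every probe with a value on at least 2 of 3 arrays in each group compared, with a threshold of 0.05. The fit was tested on simulated data. The study's own test, Significance Analysis of Microarrays, was not run. Figures used Python 3.11.15 and matplotlib 3.10.9. The number of arrays limits the precision.

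All member probes were named, list genes were named by up to 2 in each direction with the smallest p over the 3 muscles, besides Ttn, Capn3, Csrp3 and Flnc, and other list genes were named after their values were seen. The members and lists were chosen with earlier results of these data known, so no p-value was adjusted over a list alone. Alternatives covered scaling, background, filters, blocks for replicate and slide, weights, shared mice and leaving out each array. A gene among those with profiles nearest to Xirp2 is not reported here.

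Replicate numbers pair EDL and soleus fractions, which the labels assign to shared mice, and TA only in part. Deviations of same-numbered nuclear and cytoplasmic arrays from their group means correlated with r between -0.087 and 0.13 over 35528 probes. Nothing in the labels separates culture or extraction days, so p-values measure the spread between pools of fibers. In the reported fit each probe had the same spread for every group, estimated over all arrays. A nuclear comparison therefore also rests on the spread of the cytoplasmic arrays. For TA against EDL the standard error of Xirp1 was 0.63 in nuclei and 0.63 in cytoplasm. Its SD was 0.03 in TA nuclei and 0.45 in EDL nuclei, against 0.31 in TA cytoplasm and 1.59 in EDL cytoplasm.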

Additional observations from a re-analysis of the deposited data

How the results depend on the processing

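Of the differences of single probes recomputed under 33 alternatives, 1806 kept their direction and their side of the threshold, 114 lost a call, 59 gained one and 37 changed sign. Of these 37, 2 belonged to a difference called in the reported fit and 0 were called under the alternative. The cause of changes was not tested unless stated. The counts of called member probes in the reported fit were 4 over the 3 muscles, 3 in EDL, 2 in soleus and 2 in TA for nuclei against cytoplasm, 1 and 1 for soleus against EDL in nuclei and cytoplasm, 2 and 1 for TA against EDL, 4 and 4 for TA against soleus, and 0 for the interaction.

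With the replicate number as a block these counts moved by at most 1.5 times, with 4 over the 3 muscles, and the block changed no call other than the 2 given above. Each count that moved further is followed by the share of all probes called in that fit in either direction. With slide as a random block they were 1 in EDL (12.1%), 1 in soleus (6.89%), 4 in TA (50.5%), 0 (0.0993%) and 0 (1.75%) for TA against EDL, and 1 (0.611%) and 2 (19.5%) for TA against soleus. With slide as a fixed block, which could be fitted for 6 comparisons, they were 4 in TA (48.3%), 0 for TA against EDL (1.1%) and 1 for TA against soleus (17.8%) in cytoplasm. TA cytoplasm 1 alone gave the same 0 (1.02%) and 1 (17.5%), and the slide of TA nuclei alone gave 4 in TA (47.9%), each with 1 TA cytoplasmic array that is assumed to vary like the other groups. In these 2 fits of cytoplasm Ankrd23 changed sign: its 5′ probe was at 0.26 against EDL and 0.35 against soleus, and its 3′ probe at 0.025 against soleus.

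Averaging the nuclear arrays of a muscle to 1 sample, which leaves their own spread out and assumes that of the cytoplasm, gave 2 over the 3 muscles (40.1%), 0 in EDL (7.52%), soleus (3.65%) and TA (10.0%), 0 for soleus against EDL in nuclei (0.00211%), 0 (0%) and 0 (0.0216%) for TA against EDL, and 0 (0.0405%) and 1 (4.31%) for TA against soleus. Fitting only the arrays compared gave 4 in soleus (34.6%), 2 for soleus against EDL in nuclei (14.2%), 5 (43.3%) and 0 (0.00431%) for TA against EDL and 1 for TA against soleus in cytoplasm (0.629%). Array weights by fraction gave 2 (15.7%), 5 (52.9%), 0 (1.31%) and 1 (8.7%) for the last 4 of these. TA cytoplasm 1 and 2 as 1 sample gave 4 in TA (49.5%) and 2 for TA against EDL in cytoplasm (16.9%), where Ankrd2 stood at 0.13. Requiring signal well above background gave 4 in soleus (42.6%).

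Without scaling, the median of all probes for nuclei minus cytoplasm moved from -0.079 to 0.42 over the 3 muscles and from -0.012 to 0.96 in soleus, and the counts were 6 in soleus (62.1%), 4 in TA (52.5%), 1 (the 5′ probe of Ankrd23) for the interaction (36.4%) and 1 for its TA against soleus part (47.6%). Over the 3 muscles Xirp1 was then called, at 0.95. Signs that changed without scaling were those of Ankrd1 in EDL (0.57) and TA (0.21), Xirp1 in EDL (0.35), and, for soleus against EDL in nuclei, Ankrd1 (0.0087), Ankrd23 (0.14 and 0.12) and Xirp2 (0.090), in cytoplasm Xirp2 (-0.092), and for TA against EDL in nuclei Ankrd2 (-0.18). Scaling to the 75th percentile put the Ankrd23 probes at 0.059 and 0.0064 for soleus against EDL in cytoplasm, and keeping weak spots put Ankrd1 in TA at 0.066.

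Leaving out 1 array at a time gave counts of 4 to 4 over the 3 muscles, 2 to 4 in EDL, 1 to 3 in soleus, 2 to 4 in TA, 1 to 1 and 1 to 2 for soleus against EDL, 1 to 3 and 0 to 2 for TA against EDL, and 1 to 4 and 2 to 5 for TA against soleus. The difference of Ankrd1 ranged from -0.11 to 0.69 over the 3 muscles, -0.50 to 0.36 in EDL, -0.11 to 2.28 in soleus, -0.58 to 0.11 for soleus against EDL in nuclei and -0.72 to 1.67 for TA against soleus in cytoplasm. Xirp1 ranged from -0.86 to 0.58 in EDL and -0.18 to 0.94 in soleus, Ankrd2 from -0.17 to 0.46 in nuclei and -0.53 to 0.21 in cytoplasm for TA against EDL, and for soleus against EDL in cytoplasm Xirp2 from -0.18 to 0.73 and Ankrd23 from -0.15 to 0.096 and -0.15 to 0.037. The deposited matrix held no member probe and gave no value.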

Other observations

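Of the 12 genes of the injury and denervation response, 5 were higher and 3 were lower in TA nuclei than in EDL nuclei, where 7.59% of all probes were higher and 9.81% lower. In cytoplasm 3 were higher, against 5.12% of all probes, and 0 were lower. Chrna1, the alpha subunit of the muscle acetylcholine receptor, had a mean level of 11.62 in TA nuclei against 6.38 in EDL nuclei and 7.67 in soleus nuclei, differences of 5.23 ± 0.97 (limma, adjusted p = 0.00332) and 3.95 ± 0.97 (0.0111). In cytoplasm it was higher in TA than in EDL by 3.78 (0.022) and stood at 2.61 against soleus (0.055). Chrng, the fetal gamma subunit, was higher in TA than in EDL by 1.39 in nuclei (0.00977) and 1.04 in cytoplasm (0.0445). Cdkn1a, an inhibitor of the cell cycle, was higher in TA nuclei by 1.81 against EDL (0.00983) and 1.73 against soleus (0.00965). Myog, a myogenic transcription factor, and Runx1 were also higher in TA nuclei than in EDL nuclei, by 1.95 (0.0165) and 2.99 (0.0407). The genes lower there were Gadd45a, at -1.65 (0.0374), and the metallothioneins Mt1 and Mt2, both at -1.26 (0.0236 and 0.0178). Of the satellite cell markers 2 of 4 were higher in TA nuclei and 1 was lower, with a mean level of 7.88 to 8.29 against 6.36 to 6.69 in EDL nuclei, and Cdh15 stood at 12.06 against 6.47. Of the smooth muscle and pericyte markers 2 of 5 were higher and 0 lower, with a mean level of 10.56 to 10.75 against 9.71 to 9.75, and Acta2 stood at 13.84 against 10.30. The part of other cells in these differences was not tested. The genes with values here were chosen after those were seen. TA nuclei lay on a slide without EDL or soleus arrays, were scanned on another day than their nuclei and came from single mice. Slide, scan day, mice and muscle cannot be told apart.

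The only probes of another gene name within 5000 bases of a member probe on the array's coordinates were 2 of Cnnm3, on the strand opposite to Ankrd23. Over the 3 muscles they differed between nuclei and cytoplasm by 1.02 (adjusted p = 1.54e-06) and -0.19 (0.0501), beside 0.74 and 0.79 for the Ankrd23 probes.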
